A study of Bos taurus with 9 samples.

Results

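VNN2, PLAC8, CD53, PTPRC, LCP1, CORO1A, LAPTM5, RAC2, ARHGDIB and CD48 are genes of white blood cells that were measured here in RNA from bovine granulosa cells, the layer of the ovarian follicle that surrounds the oocyte. They were taken by symbol from the platform's gene table, which gave 20 of the 43794 probes on the array for the 10 genes. They had been chosen by their low log2 ratios on the 60-day arrays, so their own values on the 60-day arrays are a description with no test. The 10 genes were tested at 30 and 90 days, and genes of other lists also at 60 days. Those lists were chosen with earlier results of these data known, so their 60-day tests are not independent of these data. Of the 20 probes, 19 passed the filter on dim probes and 1 probe of PTPRC did not.

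Granulosa cells came from dominant follicles of Holstein-Friesian cows, by ovum pick-up 42 hours after prostaglandin. RNA of 30, 60 or 90 days after calving was in Cy5, on 3 arrays per day labelled as biological replicates, and RNA of 120 days after calving was in Cy3 on all 9 arrays. The cells were spun from follicular fluid and washed, and no selection of a cell type is described in the sources used here. The dyes were the same way round on every array, so a probe's dye bias remains in each ratio against 120 days.

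All blood-derived white cells share a set of surface and cytoskeletal proteins that cells of the follicle wall make little of or replace with a related protein. PTPRC encodes CD45, the phosphatase by which white cells are recognised, CD53 a tetraspanin and CD48 a lipid-anchored adhesion receptor. RAC2, ARHGDIB, LCP1 and CORO1A work on the actin cytoskeleton that white cells use to move and engulf particles, and LAPTM5 sits in their lysosomes. Leukocytes enter the ovary around ovulation and in the corpus luteum, and the basement membrane keeps most of them out of the granulosa layer of an intact follicle.

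In Cy5, the fraction of probes that exceeded the negative controls ran from 29.8% on 30 days replicate 1 to 82.3% on 60 days replicate 2. In Cy3 it ran from 20.9% on 60 days replicate 3 to 84.2% on 60 days replicate 2, so a dim probe could seldom exceed the controls in the Cy3 channel of 60 days replicate 3. By their signals, the Cy3 channels fell into 3 sets of 3 arrays, called A, B and C here. Correlations were 0.966 to 0.990 within sets and 0.885 to 0.955 between them. Set A was on 30 days replicate 1, 60 days replicate 1 and 90 days replicate 2. Set B was on 30 days replicate 2, 60 days replicate 2 and 90 days replicate 1. Set C was on each day's replicate 3. The sets are inferred from the signals and are not in the labels. The ratios of different days share this 120-day RNA and are not independent.

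At 60 days, 9 of the 10 genes had log2 ratios below 0 on all 3 arrays, against 32.3% of all genes tested, and PTPRC was the exception. The genes were chosen for low 60-day values, so an excess over that share follows from the choice. The median over the 10 genes, each represented by its brightest tested probe, was -4.01, -2.08 and -3.72 on the 60-day arrays. It was -3.10, 1.82 and 0.42 on the 30-day arrays and 2.04, -0.37 and -0.75 on the 90-day arrays. All 3 arrays of 60 days were thus low, while the arrays of 30 and of 90 days lay on both sides of the 120-day level. The first array of 30 days was as low as those of 60 days. The mean of these medians was -0.29 ± 2.53 at 30 days, -3.27 ± 1.04 at 60 days and 0.31 ± 1.51 at 90 days (SD, n = 3 arrays each).

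**Figure D1:**
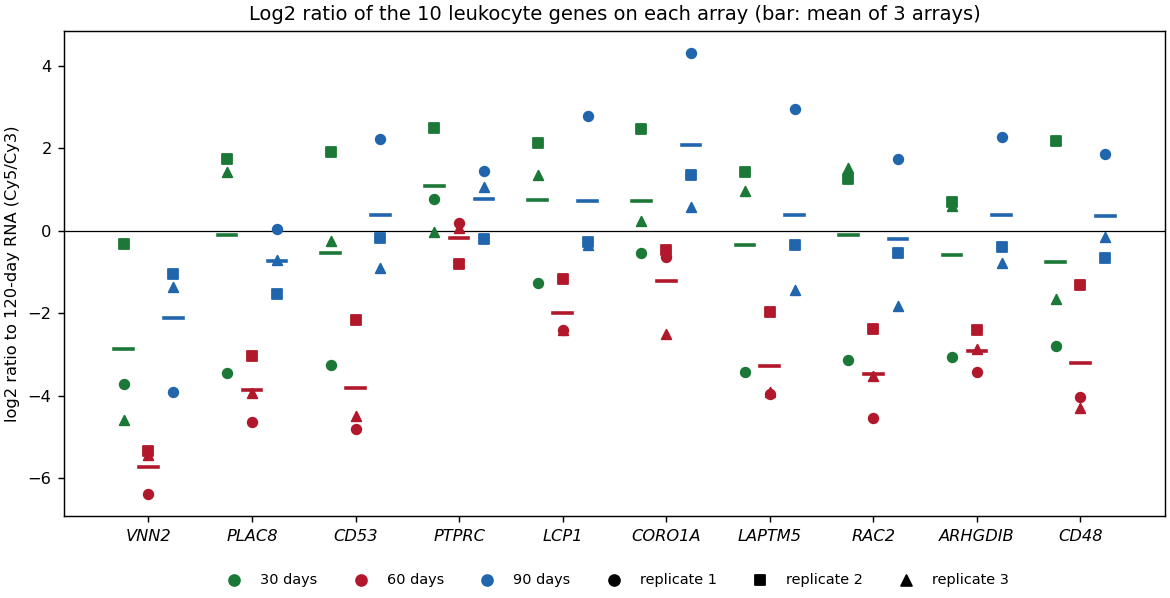
Log2 ratio of each gene to 120-day RNA on each array, with green for 30, red for 60 and blue for 90 days, symbols for the replicates and bars for the means of 3 arrays. The red points lie below 0 for 9 genes and around 0 for PTPRC, and 1 green circle, 30 days replicate 1, lies near them for most genes.

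The order of the arrays was alike for most of the genes. The 60-day arrays were below all arrays of 30 and 90 days for 1 gene of 10, VNN2, against 4.54% of all genes. With 30 days replicate 1 set aside, they were below the other arrays for 8 of 10 genes (6.4% of all genes), the exceptions being PTPRC and CD48. That array was among the 4 lowest for 8 of 10 genes, against 41.7% of all genes. LCP1 and CORO1A, which are among these 8, were not above background in its Cy5 channel. The highest array was 30 days replicate 2 or 90 days replicate 1 for 10 of 10 genes, against 27.8% of all genes. The genes' values varied together from array to array, so these counts do not stand for 10 separate observations. The counts of low 60-day arrays also follow in part from the choice of the genes for low 60-day values.

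Among the surface proteins, VNN2, a lipid-anchored vanin known from human neutrophils, had the lowest mean at 60 days. Its log2 ratio was -3.71, -0.33 and -4.60 on the 30-day arrays, -6.39, -5.35 and -5.44 on the 60-day arrays, and -3.91, -1.06 and -1.37 on the 90-day arrays. VNN2 was below the 120-day level on all 9 arrays, and the 60-day arrays did not overlap with the others. The 60-day mean of -5.73 ± 0.57 (SD, n = 3) is a level 52.9-fold lower than at 120 days.

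CD53, a tetraspanin found on nearly all white cells, had log2 ratios of -3.25, 1.90 and -0.26 on the 30-day arrays, -4.81, -2.18 and -4.49 on the 60-day arrays, and 2.23, -0.17 and -0.90 on the 90-day arrays. The 60-day mean was -3.83 ± 1.44 (SD, n = 3), which is 14.2-fold lower than at 120 days, and it was -4.65 without the second array. One array of 30 days lay inside the 60-day range. CD48, a ligand of the lymphocyte receptors CD2 and CD244, had -2.81, 2.16 and -1.65 on the 30-day arrays, -4.04, -1.31 and -4.30 on the 60-day arrays, and 1.85, -0.67 and -0.14 on the 90-day arrays. The second array of 60 days was the least low for CD48, and 2 arrays of 30 days lay below it. The 60-day mean was -3.22 ± 1.66 (SD, n = 3), and -4.17 without that array.

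PTPRC, whose product marks every nucleated blood cell, did not share the low 60-day values. Its log2 ratio was 0.78, 2.48 and -0.03 on the 30-day arrays, 0.19, -0.80 and 0.08 on the 60-day arrays, and 1.45, -0.21 and 1.05 on the 90-day arrays. The 60-day mean of -0.18 ± 0.54 (SD, n = 3) was within the spread of its arrays from 0 (0.11 with median centring in place of loess, 0.13 without the second array), and the days overlapped. The values of this PTPRC probe therefore go against the name of the group as leukocyte genes low at 60 days. The probe also varied within the inferred sets of 120-day RNA. Its Cy3 SD was 0.43, 0.53 and 0.56 in sets A, B and C, against at most 0.33 for the other genes. Whether PTPRC RNA was low at 60 days cannot be told from this probe. The other PTPRC probe was above background in 1 Cy5 channel of 9 and in no Cy3 channel, so the gene rests on 1 probe.

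LAPTM5, a lysosomal membrane protein of blood cells that limits antigen receptor signalling, had log2 ratios of -3.42, 1.42 and 0.96 on the 30-day arrays, -3.97, -1.98 and -3.92 on the 60-day arrays, and 2.96, -0.36 and -1.43 on the 90-day arrays. The 60-day mean was -3.29 ± 1.14 (SD, n = 3), and -3.95 without the second array. PLAC8, a small cysteine-rich protein first named from placenta and abundant in myeloid and lymphoid cells, had -3.45, 1.73 and 1.43 on the 30-day arrays, -4.64, -3.05 and -3.93 on the 60-day arrays, and 0.04, -1.52 and -0.72 on the 90-day arrays. Both genes had 1 array of 30 days inside the 60-day range and the other 5 arrays above it. The PLAC8 mean at 60 days of -3.87 ± 0.80 (SD, n = 3) is 14.7-fold lower than at 120 days.

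RAC2, a GTPase of blood cells that serves the phagocyte oxidase, had log2 ratios of -3.13, 1.26 and 1.52 on the 30-day arrays, -4.56, -2.38 and -3.53 on the 60-day arrays, and 1.75, -0.55 and -1.82 on the 90-day arrays. Its 60-day mean of -3.49 ± 1.09 (SD, n = 3) is 11.2-fold lower than at 120 days. ARHGDIB, which holds such GTPases in the cytosol, had -3.07, 0.69 and 0.61 on the 30-day arrays, -3.44, -2.42 and -2.88 on the 60-day arrays, and 2.27, -0.38 and -0.78 on the 90-day arrays. Its 60-day arrays were close together, with a mean of -2.91 ± 0.51 (SD, n = 3). For both genes the first array of 30 days lay inside the 60-day range.

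LCP1, an actin-bundling plastin, had log2 ratios of -1.27, 2.12 and 1.36 on the 30-day arrays, -2.41, -1.16 and -2.40 on the 60-day arrays, and 2.77, -0.26 and -0.36 on the 90-day arrays. LCP1 was above background in Cy5 on 1 of 3 arrays at 60 days, so its mean of -1.99 ± 0.72 (SD, n = 3) is set partly by the detection limit. CORO1A, a coronin that regulates actin filaments in white cells, had -0.55, 2.46 and 0.24 on the 30-day arrays, -0.65, -0.47 and -2.52 on the 60-day arrays, and 4.30, 1.36 and 0.58 on the 90-day arrays. CORO1A was the one of the 10 genes with all 90-day arrays above 0 and all 60-day arrays below 0. Its mean was -1.21 ± 1.13 at 60 days and 2.08 ± 1.96 at 90 days (SD, n = 3 each). Without the third array of 60 days the first was -0.56, and without the first array of 90 days the second was 0.97. On 30 days replicate 1, LCP1 and CORO1A were not above background in Cy5. Their ratios on that array are set partly by the detection limit.

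The separate channels show on which side the low ratios arose. Levels are given as log2 channel intensity after normalisation, where the dim second probes of PTPRC and ARHGDIB lay between 7.19 and 7.93, and they compare samples for 1 probe, not one gene with another. VNN2 was at 12.03 ± 2.20 at 30 days, 9.23 ± 0.62 at 60 days and 12.8 ± 1.5 at 90 days (SD, n = 3 each). The 9 Cy3 channels of 120 days ran from 14.69 over a median of 14.90 to 15.10. VNN2 was thus steady and high in the 120-day RNA and low in the 60-day RNA.

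CD53 was at 12.7 ± 2.2 at 30 days, 9.47 ± 0.87 at 60 days and 13.6 ± 0.9 at 90 days (SD, n = 3 each), and at 12.40, 13.42 and 13.81 as the lowest, median and highest of 120 days. RAC2 was at 13.7 ± 2.6, 10.6 ± 1.1 and 13.5 ± 1.7 at 30, 60 and 90 days, and at 13.50, 13.86 and 14.16 at 120 days. For both genes 60 days was lowest, the first array of 30 days lay inside its range, and the levels of 30, 90 and 120 days overlapped. ARHGDIB was at 12.01 ± 1.96, 9.73 ± 0.47 and 13.1 ± 1.7 at 30, 60 and 90 days, and at 12.37, 12.69 and 12.96 at 120 days. LAPTM5 was at 11.8 ± 2.5, 8.94 ± 0.82 and 12.7 ± 1.9, and at 11.70, 12.40 and 12.52 at 120 days. Both had 60 days as the lowest level and no separation among 30, 90 and 120 days. PLAC8 was at 12.3 ± 2.9, 8.59 ± 0.62 and 11.8 ± 0.7 at 30, 60 and 90 days, and at 12.17, 12.53 and 12.61 at 120 days.

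The 120-day RNA itself differed between its sets for some of the genes. CD48 was at 11.7 ± 0.2 in set A, 9.73 ± 0.28 in set B and 12.2 ± 0.1 in set C (SD, n = 3 arrays each), and its 60-day Cy5 levels of 7.64, 8.54 and 7.85 were low against every set. The weaker CD48 ratio on the second array of 60 days stands against set B. CORO1A was at 8.67 ± 0.05 and 8.69 ± 0.33 in sets A and B and at 10.28 ± 0.10 in set C. Its 60-day levels of 8.02, 8.24 and 7.65 were near or at the level of dim probes and varied less than that. Its lowest 60-day ratio stands against set C. LCP1 was at 10.3 ± 1.7, 7.71 ± 0.55 and 10.3 ± 1.6 at 30, 60 and 90 days, and at 9.195, 9.58 and 9.90 at 120 days. PTPRC was at 11.8 ± 1.3, 10.52 ± 1.42 and 11.2 ± 1.2 at 30, 60 and 90 days, and at 9.62, 10.57 and 11.49 at 120 days, and all its groups overlapped.

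**Figure D2:**
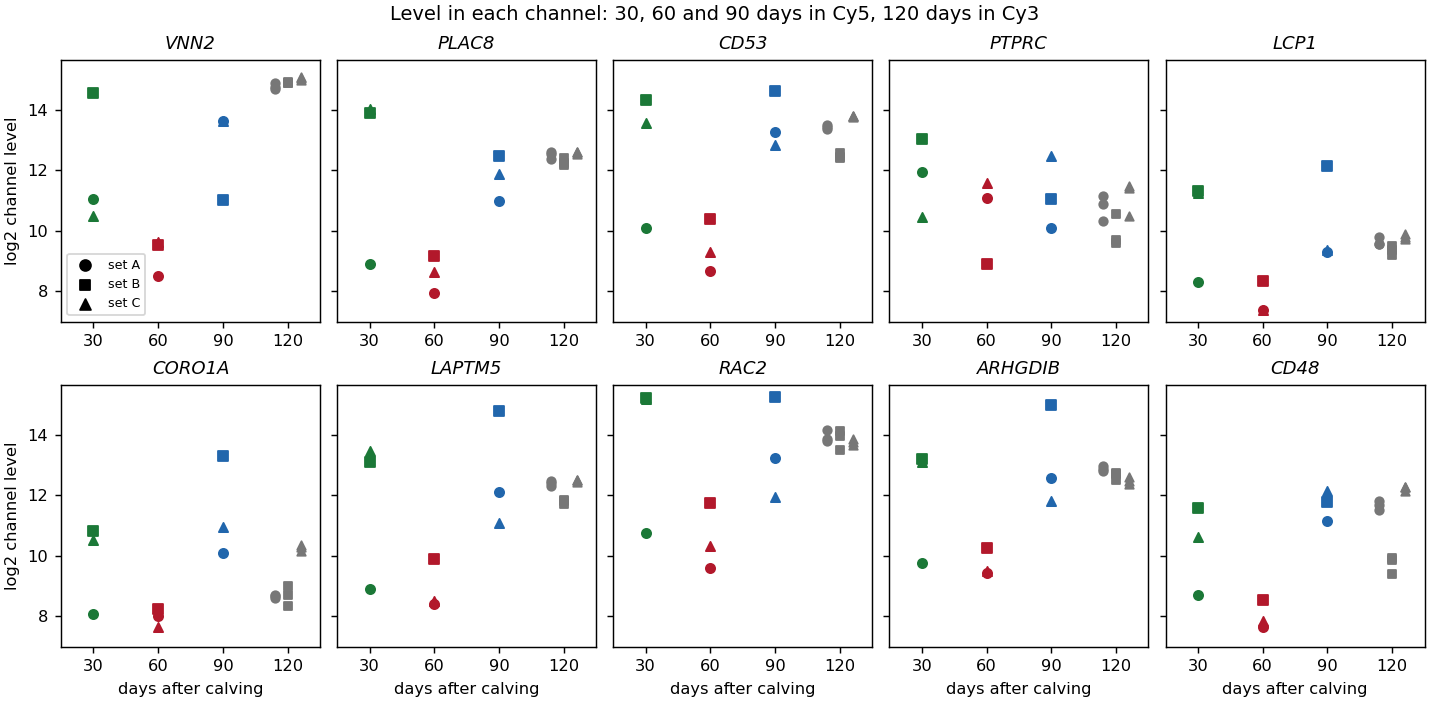
Log2 channel level of each gene on each array, with 30, 60 and 90 days from Cy5 and 120 days from Cy3, and symbols for the 120-day set on the same array. Apart from the first array of 30 days, the 60-day points lie lowest for 9 genes, 30 days splits into 1 low and 2 high arrays for most, and the 120-day levels of CD48 and CORO1A differ between sets.

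Summed over the 10 representing probes on a linear scale, Cy5 ran from 11710 to 132300 at 30 days, from 5637 to 9808 at 60 days and from 46390 to 153300 at 90 days, and Cy3 from 67210 to 89560 at 120 days. The 60-day sums lay below those of every other group. At 60 days, 9 of the 10 genes were above background on all 3 arrays, so the RNAs were low and mostly still detected. Some Cy5 levels there were at or near those of the dim second probes, 7.19 to 7.93. CD48 was at 7.64 and 7.85 on replicates 1 and 3, CORO1A at 7.65 on replicate 3 and PLAC8 at 7.95 on replicate 1. The size of their low ratios on these arrays is thus set partly by the detection limit, as for LCP1. In RNA from a whole cell pellet, fewer white cells and less RNA per white cell cannot be told apart. No probe of these genes reached the scanner's ceiling of 65535 in its median pixel, the highest being 58779 in Cy5 and 51180 in Cy3.

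The log2 ratios at 30 and 90 days did not use the 60-day arrays that chose the genes, although they share the 120-day RNA. Their standard errors and p-values did use the 60-day arrays, because the fit shares its estimate of spread over all arrays. With only the arrays of 30 and 90 days fitted, 0 probes of these genes passed in any contrast. At 30 against 120 days, 0 of 19 probes passed limma's test at an adjusted p of 0.05, where 0.203% of all probes did, and 2 had an unadjusted p under 0.05. The median log2 ratio over the 19 probes was 0.25, and their adjusted p ran from 0.168 to 0.976. Over the 10 genes, each by its brightest probe, the median was -0.23, with 7 below 0. VNN2 was nearest to the threshold, at -2.88 ± 0.85 (SE from the shared spread, n = 3, limma adjusted p = 0.168) and below 0 on 3 of 3 arrays. Fitted with only the arrays of 30 and 90 days, VNN2 had a limma adjusted p of 0.283 at 30 days. PTPRC was 1.08 ± 0.50 (SE, limma adjusted p = 0.264) and above 0 on 2 of 3 arrays. The standard errors of the other 8 genes ran from 0.79 to 1.11, so a difference of 2-fold was not detectable for them with these arrays.

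At 90 against 120 days, 0 of 19 probes passed limma's test, where 0.00258% of all probes did, and 2 had an unadjusted p under 0.05. The median log2 ratio was 0.25 over the probes and 0.38 over the 10 genes, and adjusted p of the probes ran from 0.416 to 0.952. CORO1A was 2.08 ± 0.83 (SE, limma adjusted p = 0.416), above 0 on 3 of 3 arrays, and VNN2 was -2.11 ± 0.85 (SE, limma adjusted p = 0.417), below 0 on 3 of 3 arrays. Between 30 and 90 days, 0 of 19 probes passed, as did 0% of all probes, and 0 had an unadjusted p under 0.05. The largest difference of a representing probe was CORO1A at -1.36 ± 1.17 (SE, limma adjusted p = 0.865). These intervals are wide and do not show that the days were alike.

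The probes of one gene did not always give the same ratio. PLAC8 had 5 probes in 2 patterns, with correlations over the 9 arrays of at least 0.965 within a pattern and of 0.446 to 0.667 between them. The pattern of the brightest probe held 2 probes, with 60-day means of -3.87 ± 0.80 and -2.64 ± 0.64. The other held 3, whose brightest had -2.80, -4.06 and -0.31 at 60 days. In the 120-day RNA this third-brightest probe was at 10.60 to 10.81 in set A, 12.75 to 12.85 in set B and 8.62 to 8.85 in set C, while the brightest stayed between 12.17 and 12.61. RefSeq's bovine gene table (assembly ARS-UCD2.0) lists PLAC8 only as a synonym of 2 genes, PLAC8A and PLAC8B. Which probes measure which of them was not tested.

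CD53 had a second probe with -1.63, -0.74 and -1.03 at 60 days, and the second CD48 probe had -2.70, -0.88 and -3.005. Both were nearer to 0 than the brighter probe of their gene, with which they correlated at 0.909 and 0.993. LAPTM5 had 3 probes, with 60-day means of -3.29 ± 1.14, -1.93 ± 1.23 and 0.04 ± 0.34 (SD, n = 3 each), so its dimmest probe was not low at 60 days. That probe was above background in Cy5 on 3 of 3 arrays at 60 days but close to the level of dim probes, at 8.07 to 8.10. The second ARHGDIB probe was not well above background in Cy3 on any array, nor in Cy5 at 60 days, where it gives no ratio. At 30 days its log2 ratios were 0.019, 0.515 and 0.298, a mean ratio of 1.21-fold that did not pass (limma adjusted p = 0.191). Cy5 was above background on 2 of 3 arrays there. With Cy3 dim, the size of a difference was not measured.

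**Figure D3:**
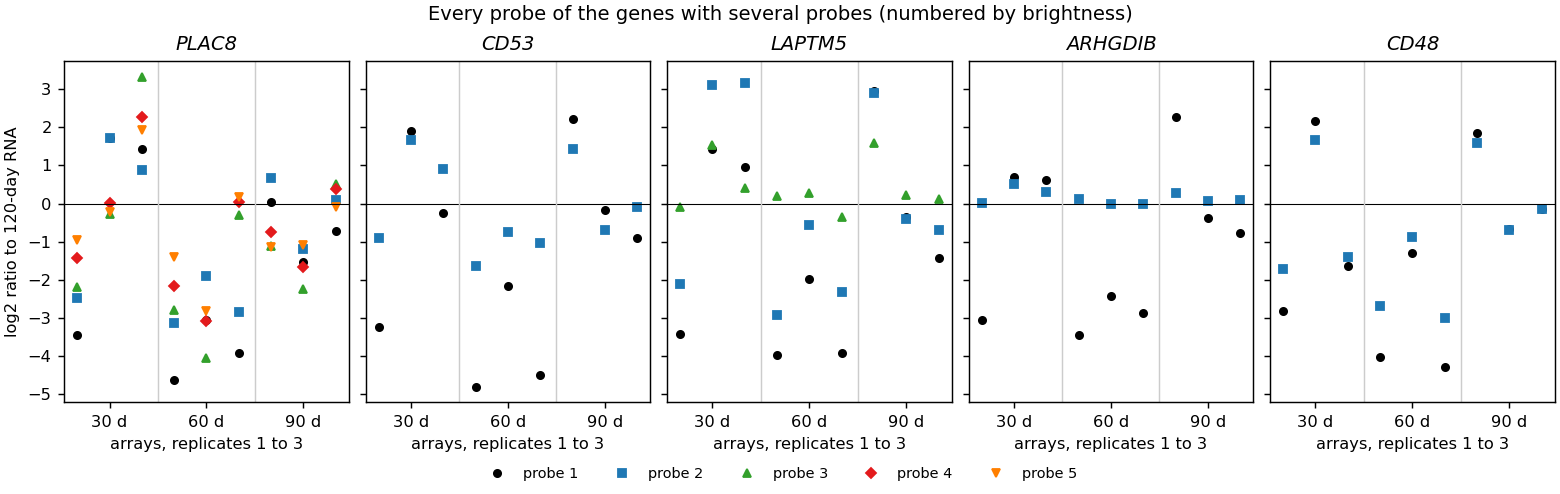
Log2 ratio to 120-day RNA of every tested probe of the genes with several tested probes, numbered from the brightest, on the arrays of 30, 60 and 90 days in the order of replicates 1 to 3. PLAC8 splits into 2 patterns, and the dimmest LAPTM5 and ARHGDIB probes stay near 0 at 60 days.

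Related genes offer a comparison on the same array, although not all of them are broadly expressed. For 15 such pairs, the difference in log2 ratio between the leukocyte gene and its relative was taken on each array. RAC1, the relative of RAC2 in most tissues, had -0.44, -0.48 and -0.10 at 60 days, so that RAC2 minus RAC1 was -3.14 ± 1.14 (SD, n = 3). ARHGDIA, the inhibitor made by most cells, averaged -0.10 ± 0.34 at 60 days, and ARHGDIB minus ARHGDIA was -2.81 ± 0.79. At 60 days the GTPase and its inhibitor were thus each low beside a relative near 0. The leukocyte genes, unlike the relatives, had been chosen for low 60-day values. At 30 and 90 days, RAC2 minus RAC1 was -0.37 ± 1.56 and -0.59 ± 1.32. ARHGDIB minus ARHGDIA was -0.88 ± 2.005 and 0.19 ± 1.41 on these days (SD, n = 3 each).

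The lysosomal relatives of LAPTM5 gave -2.89 ± 0.88 for the difference to LAPTM4A and -3.96 ± 0.72 for that to LAPTM4B. The tetraspanin CD53 differed by -3.64 ± 1.63 from CD81 and by -3.25 ± 1.69 from CD63, all on the log2 scale at 60 days (SD, n = 3). CD48 minus CD58, another ligand of CD2, was -3.54 ± 1.86, and RAC2 minus RAC3 was -3.54 ± 0.995. RAC3 stayed between -0.13 and 0.20 on every array, so its pair adds little to the ratio of RAC2 itself. The relatives in these 6 pairs had 60-day means between -0.57 and 0.67, so the difference lay mainly in the leukocyte gene. The choice of the leukocyte genes for low 60-day values leads to such differences.

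The other 7 pairs had smaller differences or a wider spread. LCP1 minus PLS3 was -1.68 ± 1.22 and LCP1 minus PLS1 was -0.996 ± 2.09 at 60 days. CORO1A minus CORO1B was -0.84 ± 1.14, CORO1A minus CORO1C was -1.22 ± 1.25, and PTPRC minus PTPRA, a phosphatase of many tissues, was -0.88 ± 0.59 (SD, n = 3 each). CD53 minus CD9 was -2.58 ± 2.66. VNN1, an epithelial vanin, was itself low, at -0.55, -4.91 and -2.11 at 60 days, and VNN2 minus VNN1 was -3.20 ± 2.70. For LCP1 against PLS1, CORO1A against both its relatives, and CD53 against CD9, the mean lay within 1 SD of 0.

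**Figure D4:**
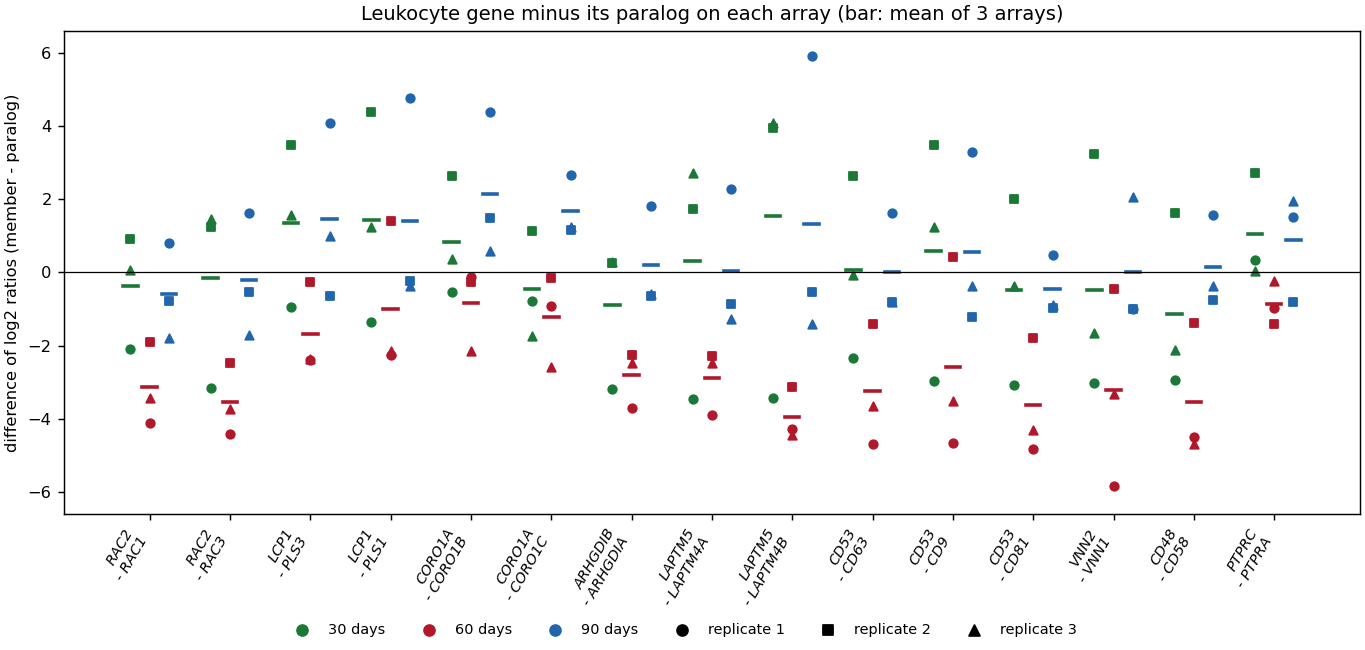
Difference in log2 ratio between each leukocyte gene and a related gene on each array, with bars for the means of 3 arrays. Red points, 60 days, are below 0 on all 3 arrays for 13 of the 15 pairs, and LCP1 against PLS1 and CD53 against CD9 each have 1 red point above 0.

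Other genes shared by white cells were mostly below the 120-day level at 60 days. Of 44 tested, 37 had a mean log2 ratio below 0, with a median of -0.80, against 7939 of all 14281 genes, whose median was -0.05. In limma's test, 1 of them rose and 1 fell, against 6.09% and 7.05% of all genes, and 15 had an unadjusted p under 0.05, as did 4439 of all 14281 genes. CYTIP, a scaffold protein of lymphocytes, was -3.39, -1.70 and -3.20 at 60 days (-2.77 ± 0.71 SE, limma adjusted p = 0.0437), and IKZF1, a lymphoid transcription factor, was 0.23 ± 0.05 (SE, limma adjusted p = 0.0292). IKZF1 was above background in Cy3 on 1 of 3 arrays at 60 days, so the size of its difference is set partly by the detection limit. Among the lowest were EVI2B at -2.99 ± 1.01, RASSF5 at -2.75 ± 0.76, WIPF1 at -2.35 ± 0.91 and TRAF3IP3 at -2.06 ± 0.61 (SE), none past the threshold. At the other end, APBB1IP at 0.87 ± 0.56, BIN2 at 0.55 ± 0.50 and IL10RA at 0.22 ± 0.08 (SE) did not pass either. ITGAL, also among the highest by its ratio, was not well above background in Cy3 on any array and in Cy5 on 1 of 3 arrays at 60 days, so its difference was not measured. The brightest was SRGN, the proteoglycan of secretory granules, at -1.15 ± 0.44 (SE). The count of falls was 0 without 30 days replicate 3, 60 days replicate 1 or 3, or 90 days replicate 2, and 3 without 30 days replicate 1 or 90 days replicate 1 or 3. It was also 0 with median centring in place of loess and with the mean of all probes of a gene.

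Markers of lymphocytes and neutrophils fell at 60 days in part of their lists. As the lists were chosen with earlier results known, an excess over the share of all genes is a description. Of 26 T and cytotoxic lymphocyte markers 8 fell and 0 rose, against 7.05% and 6.09% of all genes, with a median of -0.84. Of these markers 13 had an unadjusted p under 0.05, as did 4439 of all 14281 genes. CD3E, a chain of the T cell receptor complex, was -3.62, -3.15 and -2.5 at 60 days (-3.09 ± 0.73 SE, limma adjusted p = 0.0348). GZMB, a granule protease and the brightest of the list, was 0.68 ± 0.55 (SE) and above 0 on 3 of 3 arrays. The other 7 that fell, looked up after their values were seen, were CD3D, CD3G, CD247, CD8A, CD8B, GNLY and CCR7, and CCR7 was above background in Cy5 on 0 of 3 arrays. The count was 0 without any one of the 60-day arrays, and 5, 3 and 1 without 30 days replicates 1, 2 and 3. It was 4 without 90 days replicate 2 and 5 without 90 days replicate 3, 2 with median centring in place of loess, and 4 with the mean of all probes of a gene.

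Against 7.05% and 6.09% of all genes, 4 of 12 neutrophil markers fell and 0 rose, with a median of -0.60. These were, looked up after their values were seen, S100A8 (-2.36 ± 0.64), S100A9 (-3.29 ± 0.60), CAMP (-0.22 ± 0.06) and PGLYRP1 (-0.62 ± 0.09, SE). The neutrophil count was 0 without 60 days replicate 1 or 3, 2 without 30 days replicate 3, 60 days replicate 2, or 90 days replicate 1 or 2, and 2 with the mean of all probes of a gene. Of 9 B cell and plasma cell markers 0 passed limma's test at 60 days (2 with an unadjusted p under 0.05), with a median of -0.28. The B cell count was 1 without 30 days replicate 2. Of 15 macrophage and monocyte markers 0 passed (2 with an unadjusted p under 0.05), with a median of -0.50, and the count of falls was 1 without 30 days replicate 1. LYZ, lysozyme, was -5.90, -0.89 and -4.29 at 60 days, and CTSS, a lysosomal protease, -2.36, -1.42 and -2.26. At 30 and at 90 days against 120 days, and between 30 and 90 days, 0 genes of these 5 lists passed limma's test, with 0 to 5 genes of a list under an unadjusted p of 0.05. Of all genes, 0.287%, 0.007% and 0% passed in these comparisons.

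Markers of other cells varied over the arrays alongside these genes. The macrophage median was -1.21, 2.66 and 2.37 on the 30-day arrays, -0.95, -0.20 and -0.47 on the 60-day arrays, and 2.11, 0.81 and 0.22 on the 90-day arrays. The granulosa marker median was 0.39, -2.48 and -1.68 on the 30-day arrays, 0.74, 1.5 and 1.24 on the 60-day arrays, and -1.76, 0.60 and 0.24 on the 90-day arrays. The 3 arrays with granulosa markers far below the 120-day level were thus those with the highest medians of the 10 leukocyte genes and of the macrophage markers. Their part in the results was not tested.

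Granulosa markers, a check of the labelled tissue, were measured in all groups. Of 14, 13 were above background in Cy5 on all 60-day arrays, 8 on all 30-day arrays and 12 on all 90-day arrays, and 8 in Cy3 on all 9. Their summed level ran from 16390 to 161300 at 30 days, from 169000 to 202500 at 60 days and from 24210 to 207900 at 90 days, and from 56760 to 152700 at 120 days. At 60 days the granulosa sums did not overlap with those of 120 days and were higher, while those of the 10 leukocyte genes were lower. In limma's test 3 granulosa markers rose at 60 days and 1 fell, against 6.09% and 7.05% of all genes. AMH, the hormone of growing follicles, was at 2.78 ± 0.42, its receptor AMHR2 at 1.04 ± 0.19 and the oestrogen receptor ESR2 at 0.53 ± 0.07 (SE). GATM was at -3.95 ± 0.69 (SE). It was also at -3.32 at 30 days and -2.90 at 90 days, without passing. These genes were looked up after their values were seen. The summed macrophage level ran from 7899 to 185400 at 30 days, 8819 to 23750 at 60 days and 42050 to 146000 at 90 days, and from 30150 to 60060 at 120 days.

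**Figure D5:**
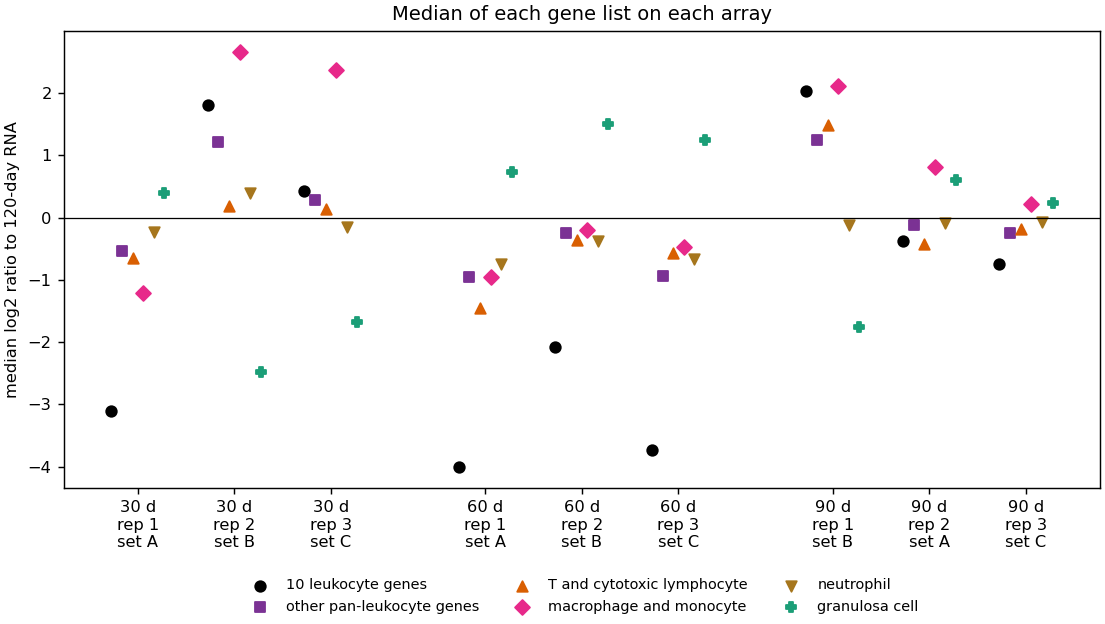
Median log2 ratio to 120-day RNA of the 10 leukocyte genes and of 5 other gene lists on each array, with the inferred 120-day set under each array. The 10 genes are lowest at 60 days and on 30 days replicate 1, and the granulosa median is lowest on the 3 arrays where the macrophage median is above 2.

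Other lists did not all follow. At 60 days the medians of 10 epithelial and mesothelial markers and 11 fibroblast and smooth muscle markers were -1.93 and -0.94. In limma's test 3 and 1 of them fell, where 7.05% of all genes fell and 6.09% rose. KRT8 was at -3.83 ± 0.84 and KRT19 at -4.23 ± 1.13 (SE), keratins of simple epithelia. The epithelial median was also low at 30 and 90 days, at -1.27 and -1.495. KRT8 was at -3.02 and -2.30 and KRT19 at -2.93 and -2.08 on these days, none past the threshold. At 60 days 0 of 9 endothelial markers passed limma's test (1 with an unadjusted p under 0.05), with a median of -0.004. Of 8 erythrocyte markers 1 rose and of 9 platelet markers 1 fell, with medians of -0.31 and -0.18. Of the 6 genes listed as theca cell markers 1, LHCGR, rose and 5 did not pass, with a median of 0.45. Whether the RNA of LHCGR came from theca or granulosa cells was not tested.

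The 10 genes varied together over the 9 arrays to unequal degrees. The highest correlation of a pair was 0.984, for LAPTM5 and ARHGDIB, and the lowest 0.450, for PTPRC and RAC2. CD53 followed the mean of the other 9 genes most closely, at r = 0.985, and VNN2 and PTPRC least, at 0.617 and 0.603. The points share 3 sets of 120-day RNA, and the choice of genes for low 60-day values favours such likeness.

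Over all 14281 genes, the pattern most like the mean profile of the 10 was that of IFI16, a sensor of DNA in the interferon response, at r = 0.990 over 9 arrays. XAF1 (0.982), DOCK8 (0.982), CYTIP (0.981), PPP1R3B (0.978), NLRC5 (0.973), LITAF (0.972), RNASE6 (0.971), GIMAP5 (0.971), DENND3 (0.971), CCR1 (0.971) and ICAM3 (0.970) followed. The median r over all genes was 0.064. IFI16 had log2 ratios of -2.82, -2.001 and -2.59 at 60 days, and GIMAP5, a GTPase of lymphocytes, -4.29, -2.71 and -3.69. Most of the 12 were thus low on the same arrays, with GIMAP5 the lowest of them at 60 days. The profiles most unlike were those of PLA2G6 (-0.966), STRBP (-0.958), KLHDC1 (-0.958), ARFIP2 (-0.954) and SMAD2 (-0.953). PLA2G6, a calcium-independent phospholipase, had 2.19, 1.73 and 1.83 at 60 days.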

How the data were processed

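The deposited array files hold, for each spot, the mean and median pixel intensity and local background of both channels, neither subtracted nor normalised, per the file headers. The authors' value table was set against these files, its columns did not follow the ratios of their own arrays, and it was not used. The array files were used as labelled, and every comparison of days rests on those labels. Whether the files or the value table carry the right labels was not tested. Mean intensities of 45220 spots were corrected with normexp (offset 50) and normalised by loess within each array, with control spots given no weight (limma 3.58.1, R 4.3.3). A probe was tested if 3 or more arrays had either channel over the mean plus 2 SD of the 153 negative control spots (38823 of 43794 probes). The platform's annotation gave 1 symbol for 21790 probes, and the brightest tested probe represented a gene (14281 genes). limma's lmFit and eBayes used all 9 arrays, with a coefficient for each day (6 residual and 1.35 prior degrees of freedom), with Benjamini-Hochberg adjustment over all probes at 0.05. The procedure was tested on simulated data. Channel levels were taken after loess and Aquantile.

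Of all genes, 2985 had an unadjusted p under 0.05 at 30 days, 1636 at 90 days and 817 between 30 and 90 days. The members and lists were chosen with earlier results of these data known. Named from the other lists were the 2 brightest genes, from the pan-leukocyte list also the 5 lowest and 5 highest at 60 days, all related genes paired with a member, and the 12 profiles most and 5 least like the members' mean. Array number limits the precision. Deviations of same-numbered arrays correlated from -0.69 to -0.29 between 30 and 90 days, the days compared with each other, and their numbers do not pair them. Between 30 and 60 days, which no test compares, same-numbered arrays share a 120-day set and correlated from 0.34 to 0.51. Pairs of arrays with the same 120-day set correlated from -0.29 to 0.58, and the lowest apart from that pair was 0.19. No sequence is shown. Alternatives were other background, normalisation, filter and variance settings, blocks by replicate or 120-day set, and leaving out each array.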

Additional observations from a re-analysis of the deposited data

Results flagged for a closer look

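CORO1A had a mean log2 ratio to 120-day RNA of -1.212 at 60 days and of 2.08 at 90 days, with all 3 arrays of 60 days below 0 and all 3 of 90 days above it. Without the third array of 60 days, at -2.52, the 60-day mean was -0.56, and without the first array of 90 days, at 4.30, the 90-day mean was 0.97. The difference was not tested, since the 60-day arrays were used to choose the gene. Its Cy3 level was about the same in sets A and B of the 120-day RNA and higher in set C, on which the lowest ratio of each day except 30 days stands.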

How the results depend on the processing

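Counts of the 10 genes' probes past the threshold at 30 against 120 days, 90 against 120 days and 30 against 90 days were 0 under every setting run, including the replicate block (0), the 120-day set as a block (0) and leaving out each array in turn (0 to 0). The replicate numbers do not pair the arrays of 30 and 90 days, the days compared with each other. Over these settings no gene's test passed in 190 values for each comparison, with lowest adjusted p of 0.0746, 0.159 and 0.474. The 60-day median of the 10 genes, -3.25, was -2.98 without background correction, -3.41 with median pixels, -3.06 with median centring and -3.99 to -2.88 when an array was left out. The sign of LCP1 at 30 against 90 days turned to -0.22 without background correction, -0.084 with median pixels and -0.14 with median centring, and RAC2 at 30 against 120 days to 0.028 with median centring. With 1 array left out, signs also turned in these ranges. At 30 days against 120 days: PLAC8 -1.01 to 1.58, CD53 -1.75 to 0.82, LAPTM5 -1.23 to 1.19, RAC2 -0.93 to 1.39, ARHGDIB -1.23 to 0.65, CD48 -2.23 to 0.26, CORO1A -0.15 to 1.35. At 90 days against 120 days: CD53 -0.54 to 1.03, LCP1 -0.31 to 1.25, LAPTM5 -0.89 to 1.30, ARHGDIB -0.58 to 0.94, CD48 -0.41 to 0.85, RAC2 -1.19 to 0.60. At 30 days against 90 days: CD53 -2.14 to 0.44, LAPTM5 -1.65 to 0.80, ARHGDIB -1.60 to 0.28, PLAC8 -0.28 to 2.31, PTPRC -0.39 to 0.86, LCP1 -0.67 to 1.05, RAC2 -0.72 to 1.60, VNN2 -2.04 to 0.093. Counts of falls at 60 days with the mean of all probes of a gene were 0 for other pan-leukocyte genes, 4 for T cell and 2 for neutrophil markers. With median centring, chosen after seeing the data, they were 0 for other pan-leukocyte genes and 2 for T cell markers. With 1 array left out, also chosen after seeing the data, they ran from 0 to 3 for other pan-leukocyte genes, 0 to 10 for T cell, 0 to 1 for B cell, 0 to 1 for macrophage and 0 to 4 for neutrophil markers. The cause was not tested. The wide spread of the 30-day and 90-day arrays limits every test here, and few probes were above background in Cy5 on 30 days replicate 1 (29.8%) and in Cy3 on 60 days replicate 3 (20.9%).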

Other observations

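APBB1IP, BIN2, GZMB and GP1BA, looked up after their values were seen, shared one shape over the 9 arrays, with correlations between them of 0.885 to 0.996. Their correlations with the PTPRC probe were 0.547 to 0.829. The shape was not confined to genes of blood cells. NR5A2 of the granulosa list and DES of the fibroblast and smooth muscle list were also high on 30 days replicate 2 (2.53 and 2.51). On 90 days replicate 3 they were at 1.45 and 1.56. Both were looked up after their values were seen. On the whole array, 347 of 38823 tested probes (0.894%) correlated above 0.95 with the GZMB probe. Of these, 174 have no gene symbol in the platform table, which gives 1 symbol for 21790 of all 43794 probes. The share without a symbol is thus close to that of the array.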
